A study of Mus musculus with 2 samples.

Results

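A set of 8 receptor genes was described in mouse G1E-ER4 cells: the beta chains Csf2rb and Csf2rb2, the alpha chains Csf2ra and Il3ra, and the receptor tyrosine kinases Kit, Flt3, Igf1r and Insr. They were taken by symbol, through the gene identifier without its version, and all 8 had 1 entry each among the 43346 mouse genes of the deposited tables. The rule that picks them uses no measured value.

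The study measured polyadenylated RNA by paired-end sequencing. G1E-ER4 is an immortalized erythroid line in which Gata1, the gene of a transcription factor needed for red cell maturation, is defective. Its GATA1 activity comes from a fusion with the hormone-binding domain of the estrogen receptor and is set free by estradiol. There was 1 group, male cells given 10 nM 17beta-estradiol for 24 h, with 2 libraries called biological replicates 1 and 2. Both libraries share the Gata1 defect, the fusion protein and the hormone. Both also name the same biosample, so that an SD from them may measure technical spread alone. A p below sets the libraries against counting error only and uses no spread between replicates. No untreated cells were analysed here, and a value below is therefore a level in treated cells, not a response to the hormone. As a model it is a single cell line that depends on a fusion protein for GATA1 activity. Summed estimated counts were 70451042 and 13841487. Replicate 1 was thus 5.09 times as deep, and low levels in replicate 2 are the less certain. The 10 erythroid markers examined were all detected in both libraries, summing to 230528 and 86142 TPM (the share of transcripts, corrected for transcript length and scaled to the same total in each library). Hbb-bs, an adult beta globin gene, was listed at 122878 and 45332 TPM and Hba-a1, an alpha globin gene, at 70454 and 35419 TPM.

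Interleukin 3 (IL-3), interleukin 5 (IL-5) and granulocyte-macrophage colony-stimulating factor (GM-CSF) each bind a private alpha chain that pairs with a common beta chain, which carries the signal through the kinase JAK2 to STAT5. Mice have an additional beta chain, encoded by Csf2rb2, that works with the IL-3 alpha chain alone. Kit, the receptor of stem cell factor, and Flt3, the receptor of FLT3 ligand, are tyrosine kinases of blood progenitors. Kit signalling sustains early erythroid cells, and Kit expression is known to decline as they mature under GATA1. Igf1r and Insr are closely related tyrosine kinases that bind insulin-like growth factors and insulin and signal through the PI3K pathway.

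The beta chain genes are near copies, and the share of reads given to each rests on the bases at which they differ. Their coding parts, 2691 bases in Csf2rb-201 and 2637 in Csf2rb2-201, aligned over 2631 base pairs, of which 126 differed (95.21% identity). Among the 90-base coding stretches compared, the one with the most differences, 15, lies in exon 4 of both and is shown 5′ to 3′ on each gene's own strand as an example of bases that tell the genes apart. Capitals mark the differing bases. It spans chr15:78338890-78338979 on the plus strand for Csf2rb and chr15:78294352-78294441 on the minus strand for Csf2rb2 (mm10).
Csf2rb-201: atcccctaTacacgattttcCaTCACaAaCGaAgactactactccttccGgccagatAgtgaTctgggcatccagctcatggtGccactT
Csf2rb2-201: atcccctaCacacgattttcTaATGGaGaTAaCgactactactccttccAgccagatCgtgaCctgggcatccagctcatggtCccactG

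In other stretches the genes have no differing base. The following 90 bases, coding bases 664 to 753 of Csf2rb-201 and 667 to 756 of Csf2rb2-201 across the junction of exons 6 and 7 (chr15:78340785-78341363, plus strand, and chr15:78291946-78292524, minus strand, with the intron between), are the same in both. A read pair that lies wholly within them has no base that assigns it, whereas a mate outside them may reach a differing base.
Csf2rb-201 and Csf2rb2-201: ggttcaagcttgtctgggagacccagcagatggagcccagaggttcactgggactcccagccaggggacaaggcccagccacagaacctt

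The longest identical coding stretch was 242 bases. Of all 100-base windows of Csf2rb-201, 7.16% were found whole in Csf2rb2-201, and 18.92% of all 50-base windows.

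Of the 8 genes, 3 reached 1 TPM in both libraries: Csf2rb, Csf2rb2 and Il3ra. Over the whole tables, 17.2% of all genes and 33.1% of the 21474 protein-coding genes did so. The beta chains stood above 300 TPM, Il3ra near 10 TPM, Kit and Igf1r below 1 TPM, and Csf2ra, Insr and Flt3 at or close to 0. In bulk RNA, fewer cells with a transcript and less of it per cell cannot be told apart.

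**Figure D1:**
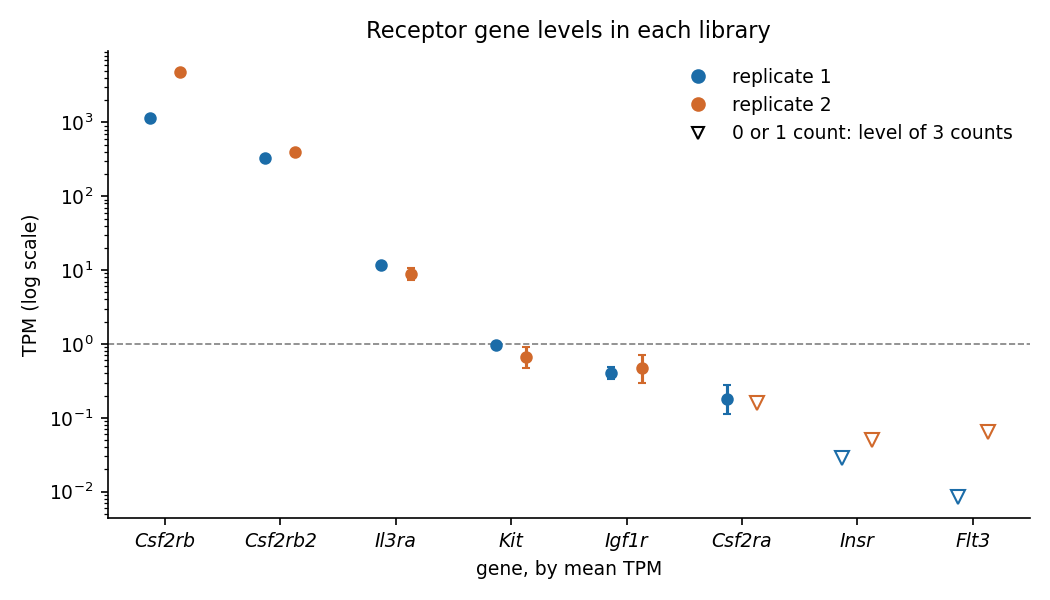
Level of each of the 8 receptor genes in both libraries, in TPM on a log axis. Bars are exact Poisson 95% intervals of the count, open triangles mark the level of 3 counts where a library held 0 or 1 count, and the dashed line is at 1 TPM. Csf2rb and Csf2rb2 lie above 300 TPM in both libraries, and Csf2ra, Insr and Flt3 have no count in replicate 2.

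Csf2rb, the common beta chain (ENSMUSG00000071713.4, chr15:78325752-78353847, plus strand), had 366919 estimated counts in replicate 1 and 249225 in replicate 2. Its level was 1154 TPM (exact Poisson 95% interval 1150 to 1158) in replicate 1 and 4811 TPM (4792 to 4830) in replicate 2, a mean of 2982 ± 2586 (SD, n = 2). The mean stands for neither library, since each value lay far from it. Csf2rb ranked 98th of all genes in replicate 1 and 23rd in replicate 2. Intervals and limits here and below cover counting error only, as the labels name no molecular identifiers.

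Csf2rb2, the IL-3 beta chain (ENSMUSG00000071714.5, chr15:78282507-78305721, minus strand), had 99977 and 19757 estimated counts. Its level was 325 TPM (323 to 327) in replicate 1 and 394 TPM (389 to 400) in replicate 2, a mean of 359.7 ± 48.9 (SD, n = 2). It ranked 353rd and 342nd, so its place among all genes was nearly the same in both libraries while that of Csf2rb was not.

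The pair lies head to head on chromosome 15, with 20030 bases between the annotated starts. Together the genes held 466896 estimated counts in replicate 1 and 268982 in replicate 2, or 0.663% (Wilson 95% interval 0.661 to 0.665) and 1.94% (1.94 to 1.95) of all counts. Their summed level was 1479 and 5205 TPM, which was 99.1% and 99.8% of the TPM of the 8 receptor genes.

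Csf2rb made up 78.0% of the pair's TPM in replicate 1 and 92.4% in replicate 2. Per length, Csf2rb stood 3.55-fold (3.52 to 3.57) above Csf2rb2 in replicate 1 and 12.2-fold (12.03 to 12.38) in replicate 2, so the order was the same and the size was not. The posterior SD deposited with the counts, which measures how far reads could be moved between features, was 165 counts for either gene in replicate 1 and 193 in replicate 2. It came to 0.0449% and 0.0774% of the Csf2rb count and to 0.165% and 0.977% of the Csf2rb2 count. These 2 genes were the only ones of the 8 with a posterior SD above 0 at the gene level, and their summed count was whole in both libraries.

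**Figure D2:**
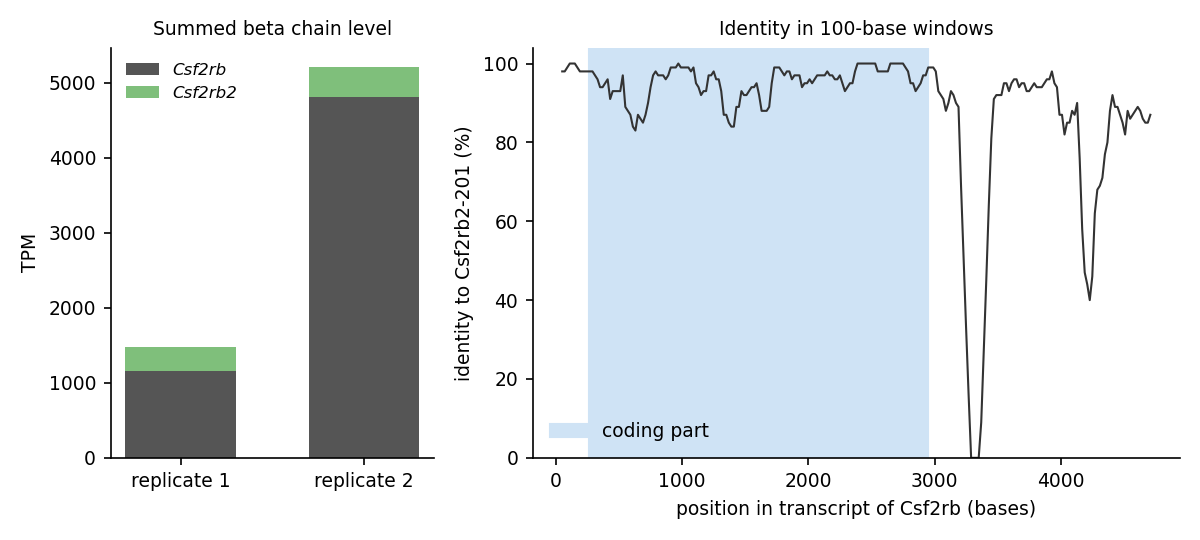
Left, TPM of Csf2rb and Csf2rb2 stacked for each library. Right, percent of identical bases between Csf2rb-201 and Csf2rb2-201 in 100-base windows along Csf2rb-201, with the coding part shaded and bases without a partner counted as not identical. The stacked bars reach 1479 and 5205 TPM, and identity is high over most of the transcript.

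The alpha chains were much lower than the beta chains. Il3ra, the IL-3 binding chain (ENSMUSG00000068758.7, chr14:14346275-14356011, plus strand), had 996 and 125 counts. Its level was 11.6 TPM (10.9 to 12.4) in replicate 1 and 8.84 TPM (7.36 to 10.5) in replicate 2, a mean of 10.2 ± 1.97 (SD, n = 2). More than 3 in 4 protein-coding genes had a lower level in either library (78.8% and 79.4%).

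Csf2ra, the GM-CSF binding chain (ENSMUSG00000059326.6, chr19:61223957-61228429, minus strand), had 21 counts in replicate 1 and 0 in replicate 2. Its level was 0.18 TPM (0.111 to 0.274) in replicate 1 and was listed at 0 in replicate 2, where 3 counts would be 0.156 TPM. That limit lies inside the counting interval of replicate 1. At the TMM-scaled level of replicate 1 (a scaling of library sizes, described with the library comparison), 3.13 counts would be expected in replicate 2, where 0 were found, and the difference was not tested because the gene was under the count minimum of that comparison. Both libraries put Csf2ra below Il3ra. Csf2ra was 0.0155 times Il3ra (0.00954 to 0.0238) in replicate 1 and at most 0.0176 times Il3ra in replicate 2, taking 3 counts in that library as the limit.

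Set against the summed beta chains, the alpha chains were minor transcripts. The pair stood 127-fold (120 to 135) above Il3ra in replicate 1 and 589-fold (494 to 707) in replicate 2. It stood 8241-fold (5391 to 13313) above Csf2ra in replicate 1 and at least 33346-fold higher in replicate 2. On the log2 scale with 0.1 TPM added, the ratio of the pair to Il3ra was 8.08 ± 1.56 (SD, n = 2) and that of Csf2ra to Il3ra was -5.94 ± 0.77.

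Kit (ENSMUSG00000005672.8, chr5:75574916-75656722, plus strand) had 338 counts in replicate 1 and 38 in replicate 2. Its level was 0.97 TPM (0.868 to 1.08) and 0.67 TPM (0.473 to 0.918), a mean of 0.82 ± 0.212 (SD, n = 2). It was under 1 TPM in both libraries and above 62.4% and 63.2% of protein-coding genes. Flt3 (ENSMUSG00000042817.13, chr5:147330741-147400489, minus strand) had 1 count in replicate 1 and 0 in replicate 2. Both libraries list it at 0 TPM, and 3 counts would be 0.00855 and 0.0646 TPM. The gene lengths behind these limits differ, at 5241 bases in replicate 1 and 4283 in replicate 2. Kit was 340-fold above Flt3 in replicate 1, with an interval of 60.7 to 13482 since Flt3 rests on 1 count, and at least 10.4-fold higher in replicate 2.

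The Kit transcripts shown next differ by 12 bases at the end of exon 9, a known alternative splice site that adds 4 codons to the part of the receptor outside the cell. The capitals mark those bases, chr5:75639147-75639158 on the plus strand (mm10). Kit-201 holds them and Kit-204 does not, and Kit-204 starts 39 bases further upstream.
Kit-201: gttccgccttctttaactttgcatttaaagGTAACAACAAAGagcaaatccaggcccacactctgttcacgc
Kit-204: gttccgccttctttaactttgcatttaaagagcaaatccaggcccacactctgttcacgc

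Of the 6 annotated Kit transcripts, the maximum likelihood estimate gave all 338 and all 38 counts to Kit-201, the form with the 12 bases. The posterior mean divided them differently. In replicate 1 it gave 230.5 ± 84.6 counts (posterior SD) to Kit-201 and 107.3 ± 84.6 to Kit-204, and in replicate 2 it gave 20.4 ± 11.7 and 17.6 ± 11.7. The posterior SD was larger than the difference between the forms in replicate 2 and wide in replicate 1, so the tables did not settle how much of each form was present. The 4 retained-intron transcripts of Kit, 354 to 842 bases long, had a summed posterior mean of 0.15 counts in replicate 1 and 0 in replicate 2. They nevertheless took 16.1% and 59.7% of the posterior mean TPM of the gene, and that TPM was 1.15 and 1.64, higher than the maximum likelihood level in both libraries.

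**Figure D3:**
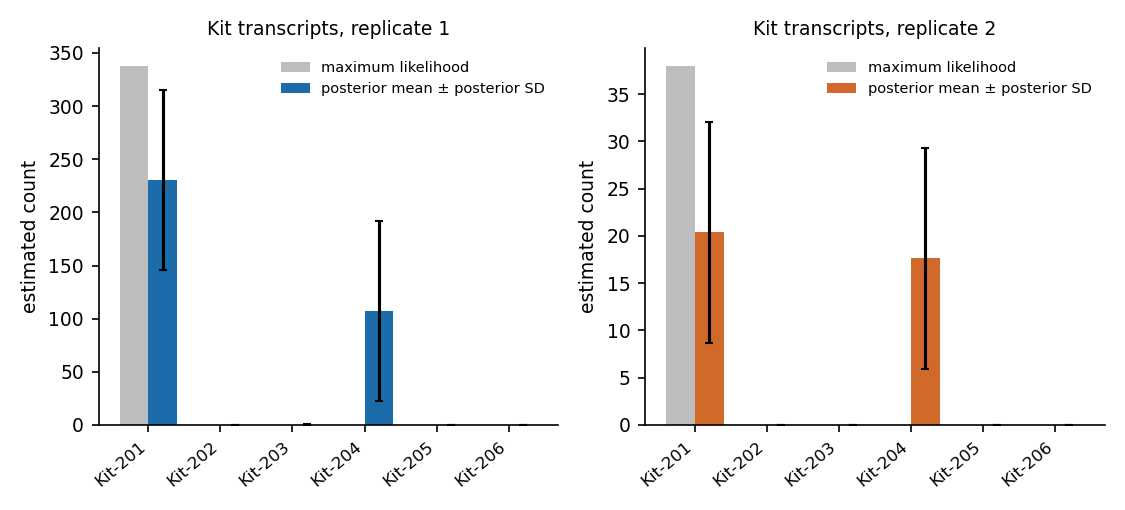
Estimated counts of the Kit transcripts in each library, as the maximum likelihood value and as the posterior mean with its posterior SD (bars). All counts sit on Kit-201 by maximum likelihood. The posterior means of Kit-201 and Kit-204 are 230.5 and 107.3 in replicate 1 and 20.4 and 17.6 in replicate 2. They overlap within their SDs in both libraries.

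Igf1r, the receptor of insulin-like growth factor 1 (ENSMUSG00000005533.9, chr7:67952827-68233668, plus strand), had 121 and 23 counts. Its level was 0.4 TPM (0.336 to 0.484) in replicate 1 and 0.47 TPM (0.299 to 0.708) in replicate 2, a mean of 0.435 ± 0.0495 (SD, n = 2). Each library's value lay inside the counting interval of the other, and both were below the lower Kit value. Insr, the insulin receptor (ENSMUSG00000005534.9, chr8:3122061-3279617, minus strand), had 1 count in replicate 1 and 0 in replicate 2. The levels listed were 0.01 and 0 TPM, with 3 counts standing for 0.0286 and 0.0498 TPM. The single count was placed on Insr-202, a retained-intron transcript, with a posterior mean of 0.79 ± 0.41 there and 0.21 on the coding transcript Insr-201. Igf1r was 42-fold above Insr in replicate 1 (7.4 to 1673, again from 1 count) and at least 9.43-fold higher in replicate 2. The length used for Insr was 1675 bases in replicate 1, that of Insr-202, and 5515 in replicate 2. Its limits and these ratios thus rest on unlike lengths, and the coding Insr-201 has 9355 bases.

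By mean TPM the order was Csf2rb, Csf2rb2, Il3ra, Kit, Igf1r, Csf2ra, Insr and Flt3. Down to Csf2ra, both values of each gene lay above both values of the next. Kit and Igf1r had separate counting intervals in replicate 1 but overlapping ones in replicate 2. Csf2ra and Insr, and Insr and Flt3, were all at 0 counts in replicate 2 and could not be ordered there. With 2 libraries a two-sided exact sign-flip test cannot go below p = 0.5, so no test of the order was made.

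The difference between the libraries was tested on scaled counts with a two-sided exact binomial test, which compares these libraries and not conditions. CPM, the count as a share of the library, was scaled by the trimmed mean of M values (TMM), and a gene was called with a Benjamini-Hochberg adjusted p under 0.05 and at least a 2-fold difference. Of the 8895 genes whose mean CPM reached 1, 47.8% were called, 17.7% higher and 30.2% lower in replicate 2. Of the called genes, 36.9% were higher in replicate 2, or 21.1% when counts were scaled to the library totals. Of the 5 receptor genes tested, 1 was called, a share no larger than that of all genes. Csf2ra, Flt3 and Insr were under the CPM minimum.

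Csf2rb was the receptor gene called. It stood at 4537 scaled CPM in replicate 1 and 20670 in replicate 2, a log2 difference of 2.19 (4.56-fold higher in replicate 2), with a p too small for double precision. The size of that difference exceeded that of 85.2% of the genes tested. Summed with Csf2rb2, as an alternative chosen after seeing the data, the pair was 3.86-fold higher (log2 1.95), a value that does not depend on how shared reads were divided between the copies.

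The other 4 differed by less than 2-fold. Csf2rb2 stood at 1236 and 1639 scaled CPM (log2 0.41, 1.33-fold, exact binomial adjusted p = 3.59e-268). Of the genes tested, 22.9% differed by less. Il3ra had a log2 difference of -0.24 (exact binomial adjusted p = 0.0863), Kit of -0.39 (exact binomial adjusted p = 0.121) and Igf1r of 0.38 (exact binomial adjusted p = 0.289). None of these 3 passed the threshold, and their directions rest on 125, 38 and 23 counts in the smaller library.

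Scaling moved the median log2 difference of all tested genes, from -0.21 with TMM to -0.14 with DESeq2 size factors and -0.61 with library totals. Relative to the TMM median, Csf2rb was higher in replicate 2 by 2.4, Csf2rb2 by 0.62, Igf1r by 0.58, and Il3ra and Kit differed by -0.03 and -0.18. With library totals Csf2rb was at 1.79 and Csf2rb2 at 0.01, and Igf1r turned to -0.02. Erythroid markers moved beside these values. Of 10 tested, 6 were called, 1 higher and 5 lower in replicate 2, beside 47.8% of all genes called, 17.7% higher and 30.2% lower. The markers had a median log2 of -0.97, and their part in the Csf2rb difference was not tested.

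**Figure D4:**
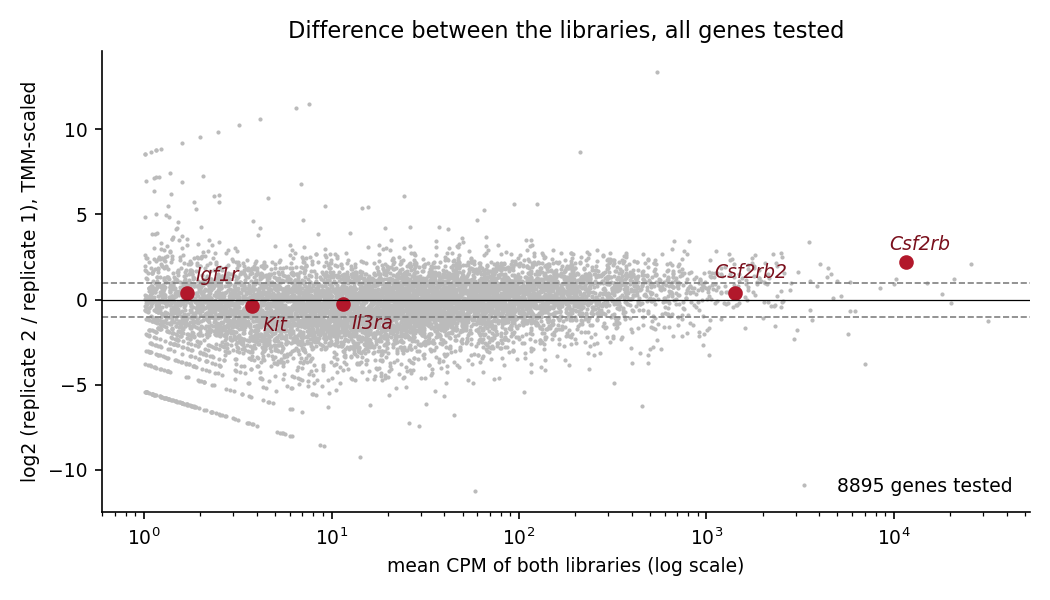
Log2 difference between the libraries (replicate 2 over replicate 1, TMM-scaled CPM) against mean CPM on a log axis for the 8895 genes tested, with the 5 tested receptor genes named. Csf2rb lies at 2.19, past the 2-fold line, and Csf2rb2, Il3ra, Kit and Igf1r lie within it.

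The ligands of these receptors were almost without counts. Of 8 measured, including Il3, Csf2, Il5 and Kitl (stem cell factor), 6 had 0 counts in both libraries and none reached 1 TPM in both. Igf1 had 0 and 4 counts and Igf2 had 2 and 0, the only counts of the list, and Ins2 had none. Flt3l, the FLT3 ligand gene, was not analysed here. The list median was 0 TPM, as was the median over all genes, and that over protein-coding genes was 0.035 TPM. Beside this list and those below, 27833 of the 43346 genes stood at 0 in both libraries, as did 8876 of the 21474 protein-coding genes.

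Among 77 receptor genes, these 8, 34 further cytokine receptors of blood cells and 35 further growth factor receptors (receptor kinases and Igf2r, which has no kinase domain), Csf2rb and Csf2rb2 were first and second in both libraries. Epor, the erythropoietin receptor, came next by mean level at 87.4 ± 12.2 TPM (SD, n = 2), with 96.0 and 78.7 TPM. Il3ra was sixth in replicate 1 and eighth in replicate 2, and by mean level Kit was 17th, Igf1r 19th, Csf2ra 23rd, Insr 38th and Flt3 41st.

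Of the 34 cytokine receptors, 9 reached 1 TPM in both libraries and 11 had 0 counts in both, with a median of 0.0375 TPM. After Epor the highest by mean level were the interferon receptor chains Ifnar2, with 25.1 and 81.0 TPM, and Ifngr2, with 5.63 and 46.2 TPM. Their place differed by library, since Ifnar2 was above Epor in replicate 2 and Ifngr2 was 11th of the 77 in replicate 1. Of 13 tested between the libraries, 6 were called, 5 higher and 1 lower in replicate 2, beside 47.8% of all genes called, 17.7% higher and 30.2% lower. Of the 35 growth factor receptors, 2 reached 1 TPM in both and 21 had no count, with a median of 0 TPM. Those detected were Ryk, a Wnt receptor, at 16.2 ± 7.37 TPM and Igf2r, the receptor that takes up and clears insulin-like growth factor 2, at 8.34 ± 2.42 TPM (SD, n = 2). Egfr, the third of the list, had 0 and 13 counts.

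Intracellular components were described by list. Of 27 adaptors, kinases and phosphatases that act below cytokine receptors and Kit, 18 reached 1 TPM in both libraries and 1 had no count, with a median of 5.92 TPM. By the mean of both libraries the highest were the adaptor Dok1, which restrains signalling, at 205.9 ± 121 TPM, the adaptor Sh2b3 (LNK) at 117 ± 79.9 TPM and the lipid phosphatase Inpp5d (SHIP1) at 107.5 ± 74.8 TPM (SD, n = 2). The levels were 291.5 and 120.3 TPM for Dok1, 60.5 and 173.5 for Sh2b3, and 160.3 and 54.6 for Inpp5d, so their order differed between the libraries. Of 23 tested, 9 were called, 6 higher and 3 lower in replicate 2, beside 47.8% of all genes called, 17.7% higher and 30.2% lower.

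Of 33 insulin and PI3K pathway genes, 20 reached 1 TPM in both libraries and 2 had no count, with a median of 8.89 TPM, although Igf1r and Insr themselves were low. The kinase gene Gsk3a stood at 450.7 ± 124 TPM, the insulin receptor substrate Irs2 at 198.2 ± 111 TPM and the transcription factor Foxo3, which is restrained by this pathway, at 194 ± 14.8 TPM (SD, n = 2). Of 23 tested, 6 were called, 3 higher and 3 lower in replicate 2, beside the same 47.8% of all genes, 17.7% higher and 30.2% lower.

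**Figure D5:**
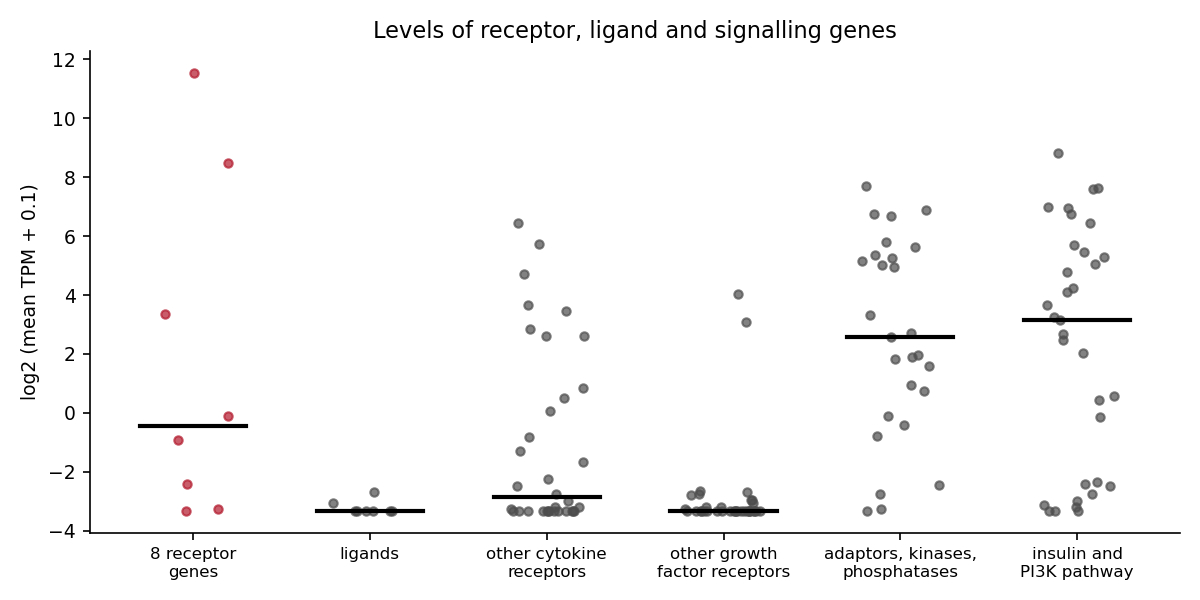
Mean TPM of each gene on the log2 scale with 0.1 added, by list, with a bar at each list's median. The 8 receptor genes span from Flt3 at 0 to Csf2rb, and the medians of the adaptor and PI3K lists, 5.92 and 8.89 TPM, lie above that of the ligands at 0 TPM.

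Csf2rb, Csf2ra, Il3ra and Kit also mark other blood cells, so markers of those cells were read beside them. Of 8 mast cell markers, 6 had 0 counts in both libraries, Cpa3 and Fcer1a among them, and the sum was 0.75 and 0.78 TPM, with Hdc at 0.75 and 0.59 TPM (110 and 16 counts) and Tpsb2 at 0 and 0.19 TPM (0 and 2 counts). Monocyte and macrophage markers summed to 0.58 and 1.11 TPM over 6 genes, 3 of them without a count, Csf1r included, and Cd68 with 37 and 9 counts and Cd14 with 0 and 3 led the list. Neutrophil markers summed to 0.24 and 0.09 TPM over 7 genes, 3 without a count, with 5 and 0 counts for Prtn3 and 0 and 1 for Ngp. Markers of lymphoid cells summed to 1.69 and 3.25 TPM over 6 genes, led by Gata3 at 1.46 and 2.48 TPM and Cd79a at 0.22 and 0.61 TPM, and those of stromal and endothelial cells to 0.06 and 0.38 TPM over 6 genes, led by Col1a1 and Kdr. Megakaryocyte markers were the highest, at 22.4 and 36.6 TPM over 6 genes, 2 of them without a count, led by Gp1ba at 17.04 and 28.98 TPM and Itga2b at 3.32 and 3.27 TPM. The part of such cells in the receptor levels was not tested.

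Promoter sequences, the 250 bases before the start in RefSeq on GRCm38.p6, matched 6 of the 8 genes, all but Csf2rb and Insr. They were read on both strands for AGATAA, the core letters bound by GATA factors, and for its variants with T in the first place, TGATAA, with G in the last place, AGATAG, and with both changes, TGATAG. Csf2rb2 and Il3ra held 1 each and Csf2ra, Kit, Flt3 and Igf1r held 0, beside 26.5% of the 32851 promoters in the table with at least 1. The Csf2rb2 promoter is shown as that of the only beta chain with a window, at chr15:78305722-78305971 on the minus strand, with the match in capitals as read on this strand, starting 38 bases before the start. The Il3ra match is shown with its surroundings, chr14:14346336-14346365 on the plus strand, starting 147 bases before the RefSeq start. The gene positions given above place some starts elsewhere. Il3ra there begins at 14346275, so its match and most of its window (chr14:14346245-14346494) lie inside the gene. The windows of Kit and Csf2ra also overlap their genes, and that of Igf1r ends at 67952256, before its gene begins at 67952827. A match in letters is not a bound site, and binding was not measured in these data.
Csf2rb2: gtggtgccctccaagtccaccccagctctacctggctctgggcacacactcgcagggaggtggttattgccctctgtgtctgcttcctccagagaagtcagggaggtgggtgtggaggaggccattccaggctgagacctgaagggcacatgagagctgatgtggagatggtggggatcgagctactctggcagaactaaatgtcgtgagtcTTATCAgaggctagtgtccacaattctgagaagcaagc
Il3ra: gccccgcccccaCTATCTcaggaagttgct

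CpG dinucleotides in these windows numbered 3 in Csf2rb2, 13 in Flt3, 17 in Csf2ra, 17 and 18 in the 2 windows of Kit, 27 in Il3ra and 42 in Igf1r, against a median of 6 over all promoters. Csf2rb2, the highest of them in TPM, had the fewest and Igf1r, below 1 TPM, the most. The genes between did not follow that order: Il3ra, next to Csf2rb2 in TPM, had 27, and Flt3, listed at 0 TPM, had 13.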

How the data were processed

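The authors deposited, for each of the 2 libraries, a gene and a transcript table with estimated counts, which can be fractional, in a maximum likelihood and a posterior mean version. The deposited TPM values, and the deposited FPKM values used only as an alternative, are corrected for effective length. A transcript's share of its gene is deposited as a percent. The assembly was mm10, per the labels, and reads aligned to the transcriptome were quantified on GENCODE M4, per the deposited notes. The aligner, quantification tool and use of strand were not given in the sources used here.

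Non-gene entries held 3 and 0 counts and were left out. Symbols, positions and transcript sequences came from GENCODE M21 on the same assembly, joined by identifier, which named 42462 of 43346 genes. Detected means at least 1 TPM in both libraries, and log2 ratios add 0.1 TPM. Between libraries, rounded counts scaled by TMM (edgeR 4.0.16) were tested with scipy 1.17.1, with a prior count of 0.5 for log2 differences. In data simulated for that comparison over 8903 genes, 97 of 100 genes with a 3-fold and 100 of 100 with an 8-fold change were called, and 0 of 8703 unchanged genes. Both simulated libraries held Poisson counting error alone, which is what the test assumes. The simulation therefore cannot give the rate of false calls in the real libraries, where 47.8% of genes were called. A limit for 0 counts is 3 counts, and intervals are at 95%. The sequences were aligned with Biopython 1.88.

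The genes and lists were chosen with earlier results of these data known. Genes named are the 8 receptor genes, the 3 highest of each pathway list with Epor, the 2 highest of each marker list, and the 2 nearest to Csf2rb in level. Members of a list named beyond these (Il3, Csf2, Il5, Kitl, Cpa3, Fcer1a, Csf1r) are named for their counts of 0, seen in the data. Alternatives were other minimum levels, posterior means, FPKM, a pseudocount of 1, scaled CPM, library totals, size factors of DESeq2 1.42.0, other filters and folds, TPM without mitochondrial, globin and ribosomal RNA genes, the pair summed, and leaving out each library.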

Additional observations from a re-analysis of the deposited data

How the results depend on the processing

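Csf2rb was the 1 receptor gene called under each alternative scaling, count, filter and fold, with log2 differences from 1.79 to 2.26, and with the pair summed the pair was. Of the 8 genes, 3 were detected, 5 when detection was at least 10 counts in both libraries (Kit and Igf1r added), and 4 with posterior mean TPM or a minimum of 0.5 TPM (Kit added). Of the posterior mean TPM of Kit, 16.1% and 59.7% lay on retained-intron transcripts with 0.15 and 0 counts. With a pseudocount of 1 TPM, mean log2 ratios moved to 11.32 for the pair over Csf2ra (14.02 with 0.1), -3.36 for Csf2ra over Il3ra (-5.94), 0.86 for Kit over Flt3 (3.18) and 0.51 for Igf1r over Insr (2.35). With scaled CPM in place of TPM, which is not per length, they were 9.96 for the pair over Il3ra (8.08), 5.14 for Kit over Flt3 and 4.08 for Igf1r over Insr, and posterior mean TPM gave 1.93 for Igf1r over Insr. The cause of the last was not tested. Insr stood at 0.02 and 0.06 in posterior mean TPM (0.01 and 0 by maximum likelihood), and Igf1r at 0.4 and 0.46 (0.4 and 0.47). Scaled to library totals, Kit (-0.79, exact binomial adjusted p = 0.000776) and Il3ra (-0.64, exact binomial adjusted p = 9.43e-07) passed the p threshold but not 2-fold, and 4494 genes were called against 4253. With no filter 6184 of 15466 genes were called. Leaving out a library gave 1154 or 4811 TPM for Csf2rb, and 1.83 or 3.61 for its log2 ratio to Csf2rb2. No paired analysis was possible because there is 1 group. Depth limits Csf2ra, Insr and Flt3, whose level in replicate 2 can be given only as a limit.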

Other observations

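The protein-coding genes nearest to Csf2rb in level over both libraries were Pcbp1, an RNA-binding protein that also carries iron, with 1158 and 4490 TPM, and Fkbp8, a chaperone of the mitochondrial outer membrane, with 1438 and 4260 TPM. Their distances from Csf2rb, over log2(TPM + 1) in 2 libraries, were 0.1 and 0.36. Nearness over 2 libraries is a description of level and of the difference between these libraries.

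The gene models behind the counts were shorter for some receptors than in the newer annotation. Igf1r-201 had 4489 bases in the tables and 11409 in GENCODE M21, Il3ra-201 had 1394 and 1614, and Csf2rb2-201 had 4612 and 4740. Csf2rb-201, with 4764 bases, Csf2ra-201 and Kit-201 had the same length in both. Fragments beyond the shorter models have no count in these tables. Small genes inside the receptor genes, Mir7676-2 in Csf2rb and Mir7676-1 in Csf2rb2, and the antisense genes Gm26597 at Flt3 and Gm16180 at Insr, had 0 counts in both libraries; they are named for their position.

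Of the 8 receptor genes, 5 had 1 transcript each in the tables, and the 3 with more, Kit, Flt3 and Insr, were all under 1 TPM. None of them thus entered the comparison of leading transcripts between libraries, which was made at 1 TPM or more. Over the tables, 5519 genes with more than 1 transcript reached that level, and 65.4% kept the same leading transcript in both libraries.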
